A study of Mus musculus with 24 samples.

Results

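The CAG length gradient in neural progenitor cells (NPC) was read from 8 RNA sequencing libraries of the series' 24. They come from 4 mouse knock-in lines, with 2 libraries each, and were chosen as the 8 NPC columns that carry a repeat length. The lines are heterozygous: 1 allele of Htt, the mouse huntingtin gene also called Hdh, carries 20, 50, 92 or 111 CAG units, and they are called Q20, Q50, Q92 and Q111 here. Titles put the third length at 92 repeats, whereas the growth protocol and the columns say 89, and 92 was used. Embryonic stem cell (mESC) lines grown on a feeder layer of irradiated mouse embryonic fibroblasts (CF-1 IRR MEF) with LIF were differentiated in N2B27 medium, then passaged on laminin in NS medium with FGF and EGF. Also sequenced were 2 wild-type (WT) and 2 Htt knockout (KO) NPC libraries, and the same 6 genotypes as mESC. Each length is a single line, so length and line cannot be told apart, and nothing in the labels says whether the 2 libraries of a line came from separate differentiations. The p-values of slopes below therefore judge a slope against the scatter of these libraries about a straight line on length. That scatter joins differences between the 2 libraries of a line, which may be technical, with departures of the line means from the straight line. The test of departure is judged against the first part alone. Neither measures the spread between independent lines of the same length.

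Huntingtin is a large scaffold protein, and an expanded CAG repeat in exon 1, which lengthens a run of glutamines near its start, causes Huntington's disease. NPC kept in EGF and FGF divide and hold genes of radial glia, the stem cells of the developing brain. On leaving division such cells can take up the programmes of astrocytes, neurons or oligodendrocytes. The coding start of mouse Htt is shown because the repeat it holds is what differs between the lines. It is from GENCODE M21 on GRCm38, chr5:34761907-34761996, plus strand, in coding exon 1, with the glutamine codons in capitals.
Htt reference coding start: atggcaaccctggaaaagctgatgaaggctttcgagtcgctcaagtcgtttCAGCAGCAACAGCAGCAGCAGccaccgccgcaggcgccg
The reference run has 7 glutamine codons, 6 of them CAG and 1 CAA, at chr5:34761958-34761978. The sequence of the knock-in alleles was not analysed here.

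The level of Htt itself was not called as a trend with repeat length. It stood at 157 and 155 CPM in Q20, 182 and 173 in Q50, 184 and 168 in Q92, and 137 and 150.2 in Q111 (CPM, read counts scaled for depth by the authors). The Q111 libraries were the lowest of the 8 and the Q50 and Q92 libraries the highest. Htt passed the test of departure from a straight line (adjusted p 0.031, limma). The slope, which throughout is the change of log2(CPM + 1) over the 91 repeats between 20 and 111, was -0.08 (SE 0.15, adjusted p 0.742). It changed sign without Q111 library 1, to 0.04, and without the Q111 line, to 0.20. The WT libraries held 137 and 177 CPM and the KO libraries 100.1 and 94.9, the lowest of the 12 NPC libraries. The total over the gene was thus lowered and not absent in the libraries labelled knockout, so it does not by itself bear out that label, and KO below means the libraries so labelled. The tables count reads per gene, so the 2 alleles of a knock-in line are not told apart.

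The 8 libraries held 48525333 to 84353617 counted reads, recovered from the scaled values. The lines differed by more than their repeat. The summed level of 11 pluripotency genes was 227 and 231 CPM in Q20 against 5.38 to 34.6 CPM in the other 6 libraries. Pou5f1, a core pluripotency factor, stood at 90.1 and 87.4 CPM in Q20, 0.058 and 0.0235 in Q50, 0 and 0.0625 in Q92, and 0.244 and 0.156 in Q111. Transcripts of 4 Y chromosome genes summed to 0.135 and 0.0941 CPM in Q50, against 199 to 260.1 CPM in the other knock-in lines. Kdm5d, a member of that sum, stood at 43.6 and 46.8 CPM in Q111 and at 0.188 to 0.273 CPM in Q20 and Q92. Fibroblast and feeder markers summed to 1327 and 1297 CPM in Q50, 495 and 421 in Q20 and 252 to 284 in Q92 and Q111. Their part in the results below was not tested. Radial glia and neural stem markers summed to 7244 and 7449 CPM in Q20, 15370 and 16264 in Q50, 14143 and 14189 in Q92, and 9409 and 9940 in Q111. Abundant genes dominate this sum, and Slc1a3 is also in the astrocyte list. Of the 24 genes listed 23 had values, and Sox2 had none. Among these markers Fabp7, a fatty acid binding protein of radial glia, ranged over 1194 to 3921 CPM and Vim, an intermediate filament, over 907 to 2862 CPM. Sox1, Sox3 and Nr2e1 were listed at 0 in at least 1 library. Microglia and blood cell markers summed to 2.64 to 9.87 CPM and endothelial markers to 3.38 to 14.1 CPM.

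Of 13206 tested genes, 2909 followed repeat length at an adjusted p under 0.05 (limma): 1579 rose, which is 12% of the genes tested, and 1330 fell, which is 10.1%. The median slope was 0.92 among rising genes, -1.42 among falling genes and 0.04 over all tested genes. With 1 mean per line, the 4 values that carry the length, limma called none (0% of the genes tested), against 1831 genes at an unadjusted p under 0.05. edgeR on the recovered reads of the 8 libraries called 2731. The calls were thus made with the 2 libraries of a line as separate points. They also moved with the ends of the gradient: 1213 genes were called without Q20 library 1, 1453 without Q20 library 2, 1696 without Q111 library 1 and 1665 without Q111 library 2. Without the whole Q20 line 1880 genes were called, of which 1076 were among the 2909. Over the 4 fits that each leave out a line, 353 of the rising and 253 of the falling genes kept their call and direction in each. Of 112 called genes that the naming rule picks, 41 kept their call with each line left out and 64 with each single library left out. The 48 that did not keep it with single libraries left out lost it without Q20 library 1, and of these 44 also without Q20 library 2, 36 without Q111 library 1 and 36 without Q111 library 2, so a call said below to be lost without Q20 library 1 was in most cases lost without other libraries too.

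Rising genes stood at higher levels than falling genes. Their highest line mean had a median of 108 CPM, against 19.02 CPM for falling genes and 40.8 CPM for all genes. Line means stood in the order of length for 843 rising genes (53.4%) and 562 falling genes (42.3%), against 14.8% of all genes. All 8 libraries stood in that order for 372 rising and 244 falling genes. The steps from 20 to 50, 50 to 92 and 92 to 111 repeats cover 33.0%, 46.2% and 20.9% of the range of lengths. Rising genes had a median 29.0%, 48.8% and 21.4% of their change in these steps, close to those widths. The calls came from a straight line on length, so ordered means and shares near the widths are partly built in. Falling genes had 42.9%, 40.8% and 8.20%, with more of the fall in the first step and less in the last. Many falling genes were close to silent at the end of the series: 451 of 1330 had a Q111 mean under 1 CPM, against 1240 of all 13206 tested genes. Of the 1579 rising genes 32 had a Q20 mean under 1 CPM, against 565 of the 13206. A gene low in a line passed the filter through other libraries, so these counts are partly built in. A test of departure from a straight line over the 4 lengths was passed by 6661 genes (50.4%), among them 571 rising (36.2%) and 777 falling genes (58.4%). The calls also bear on these shares, since they favour genes close to a straight line.

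Among the 12 largest rises, drawn from genes whose 8 libraries stand in order of length, were makers of DNA precursors, a growth factor and a calcium sensor. Stim2, a sensor of calcium in the endoplasmic reticulum that opens store-operated calcium channels (chr5:53998499-54121057, GRCm38, plus strand), stood at 71.9 and 76.9 CPM in Q20, 114 and 126 in Q50, 219 and 215 in Q92, and 324 and 313 in Q111. The lines did not overlap, and the slope of 2.04 (SE 0.11, adjusted p 0.000287) held in each fit with a line left out. Areg, which encodes amphiregulin, a ligand of the EGF receptor, stood at 0.137 and 0.322 CPM in Q20, 2.98 and 6.06 in Q50, 8.34 and 8.51 in Q92, and 37.3 and 40.2 in Q111 (slope 4.43, SE 0.51, adjusted p 0.00148). It was close to absent in Q20 and highest in Q111, with libraries 1 and 2 of WT at 0.0876 and 2.69 CPM. Tsnax, a partner of the nucleic acid binding protein translin, stood at 22.7 and 20.3 CPM in Q20, 54.7 and 59.7 in Q50, 132 and 128 in Q92, and 178 and 187 in Q111 (slope 2.97, SE 0.18, adjusted p 0.000287). Tk1, thymidine kinase, stood at 27.6 and 27.6 CPM in Q20, 50.7 and 62.2 in Q50, 91 and 94.7 in Q92, and 204 and 198 in Q111 (slope 2.58, SE 0.23, adjusted p 0.000828). Rrm2, the small subunit of ribonucleotide reductase, stood at 81.5 and 87.4 CPM in Q20, 206 and 234.2 in Q50, 296 and 263 in Q92, and 536 and 663 in Q111 (slope 2.44, SE 0.30, adjusted p 0.00179). Both enzymes supply deoxynucleotides, and in both the libraries of neighbouring lines did not overlap, as the choice of the 12 required. Cspg4, the NG2 proteoglycan of oligodendrocyte precursors, stood at 5.17 and 4.26 CPM in Q20, 17.6 and 14.5 in Q50, 20.8 and 19.5 in Q92, and 39 and 39.9 in Q111 (slope 2.47, SE 0.34, adjusted p 0.00291).

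The other 6 largest rises had slopes of 2.88 for Fam72a, 2.26 for Morc4, 2.23 for Bex2, 2.15 for E2f8, 2.05 for Cntnap4 and 2.04 for Chn2. E2f8, an atypical E2F repressor made in dividing cells, stood at 9.03 and 9.72 CPM in Q20, 20.4 and 24.3 in Q50, 31.6 and 30.5 in Q92, and 49.3 and 57.5 in Q111. Chn2, a GTPase activating protein for Rac, stood at 31.9 and 36.5 CPM in Q20, 71.8 and 96.3 in Q50, 115 and 131 in Q92, and 176 and 141 in Q111. Bex2, a brain-expressed X-linked gene, stood at 37 and 34.4 CPM in Q20, 50.4 and 68.3 in Q50, 93.7 and 102 in Q92, and 194 and 189 in Q111. Its KO libraries, at 97.5 and 32.8 CPM, lay within the Q92 pair and below the Q20 pair. Fam72a, Cspg4, Rrm2 and Cntnap4 lost their call without the Q20 line, and the other 8 of the 12 kept theirs with each line left out.

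**Figure D1:**
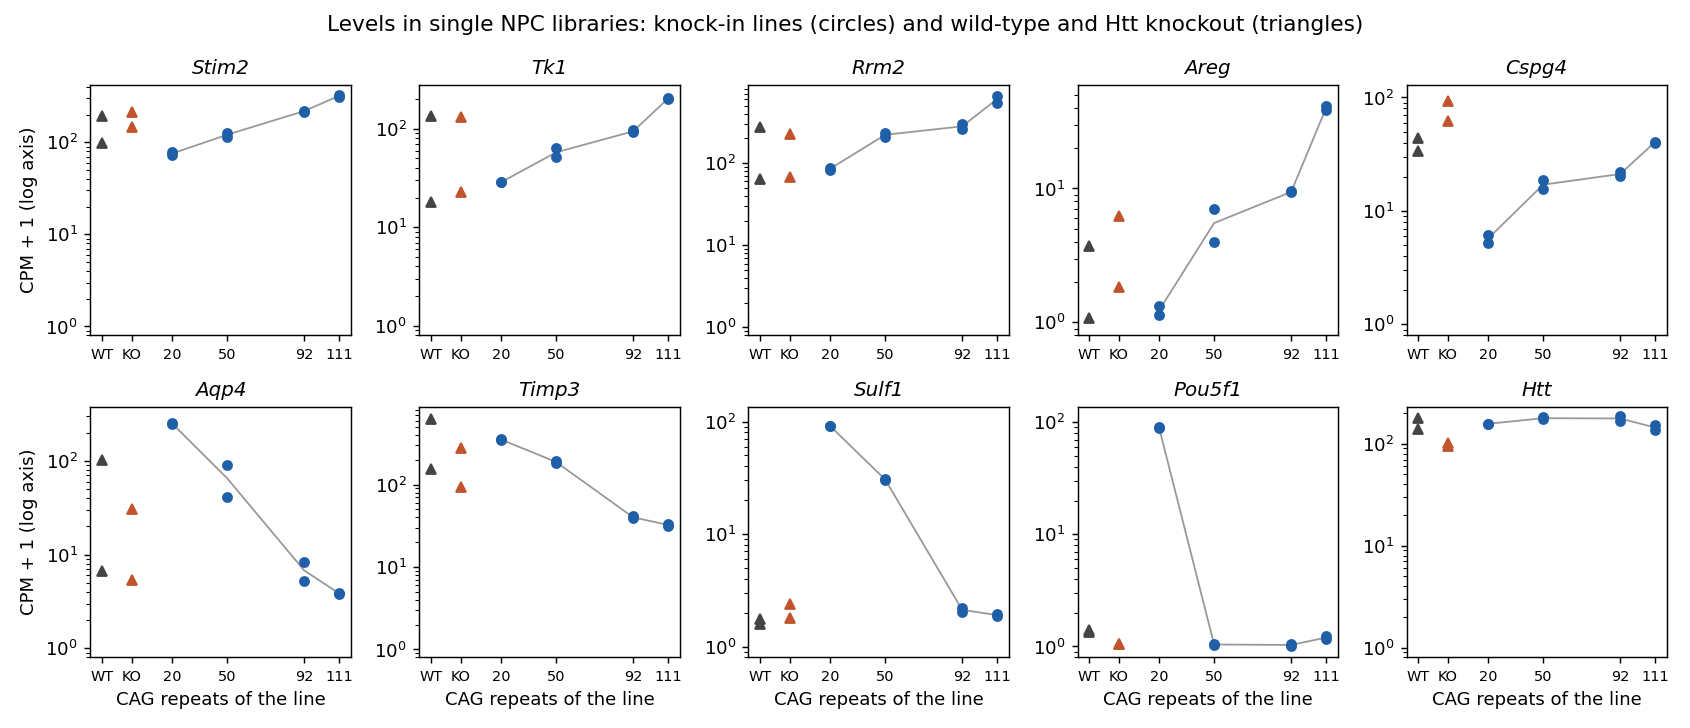
Levels of 10 genes in single NPC libraries, as CPM + 1 on a log axis, against the CAG repeats of the line, with WT and KO libraries as triangles at the left and a grey line through the line means. Stim2, Tk1, Rrm2, Areg and Cspg4 rose; Aqp4, Timp3 and Sulf1 fell; Pou5f1 was high in Q20 alone and Htt stayed between 137 and 184 CPM in the knock-in lines.

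The 12 largest falls, chosen the same way, included secreted and cell surface proteins, beside others such as Abat and Pim2. Aqp4, the water channel of astrocytes, stood at 253 and 247 CPM in Q20, 89 and 39.7 in Q50, 4.28 and 7.3 in Q92, and 2.8 and 2.92 in Q111 (slope -6.21, SE 0.37, adjusted p 0.000287). The fall ran through each step and was largest between Q50 and Q92. Sulf1, an enzyme that trims sulfates from heparan sulfate outside the cell (chromosome 1), stood at 90.0 and 90.7 CPM in Q20, 29.1 and 30.2 in Q50, 1.02 and 1.22 in Q92, and 0.853 and 0.95 in Q111 (slope -6.11, SE 0.44, adjusted p 0.000541). The WT and KO libraries held 0.578 to 1.37 CPM of Sulf1, a range that holds all 4 Q92 and Q111 libraries. Timp3, an inhibitor of matrix metalloproteinases (chr10:86300372-86349506, GRCm38, plus strand), stood at 352 and 352 CPM in Q20, 191 and 183 in Q50, 40.1 and 38.2 in Q92, and 30.1 and 32.7 in Q111 (slope -3.70, SE 0.21, adjusted p 0.000287). Abat, the enzyme that breaks down GABA, stood at 266 and 233.9 CPM in Q20, 227 and 196 in Q50, 46.9 and 38.9 in Q92, and 17.4 and 12.7 in Q111 (slope -4.06, SE 0.43, adjusted p 0.00112). Mdk, which encodes the growth factor midkine, stood at 35.9 and 32 CPM in Q20, 7.95 and 6.63 in Q50, 3.01 and 3.41 in Q92, and 0.893 and 1.12 in Q111 (slope -3.80, SE 0.36, adjusted p 0.000838). In both Timp3 and Mdk the 8 libraries fell in order of length, as the choice of the 12 required, and Mdk was already low in Q50.

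Colec12, a scavenger receptor, stood at 37.4 and 38.3 CPM in Q20, 22.5 and 22 in Q50, 0.512 and 0.782 in Q92, and 0.311 and 0.198 in Q111 (slope -5.52, SE 0.49, adjusted p 0.000828). It was on in Q20 and Q50 and near 0 in Q92 and Q111. St6gal2, a sialyltransferase, stood at 26.6 and 30.0 CPM in Q20, 13.8 and 8.68 in Q50, 1.25 and 0.844 in Q92, and 0.812 and 0.411 in Q111, below its WT libraries at 128 and 58.0 CPM. Slc7a3, a transporter of cationic amino acids, stood at 95.2 and 89.6 CPM in Q20, 7.25 and 6.26 in Q50, 4.29 and 4.03 in Q92, and 1.85 and 2.06 in Q111. Most of that fall came at the first step. Sfrp1, a secreted Wnt antagonist, stood at 102 and 124 CPM in Q20, 34.1 and 43.5 in Q50, 25 and 24.1 in Q92, and 2.88 and 3.35 in Q111. The slopes of the remaining 3 were -4.29 for Gm973, -4.06 for Pim2, a serine/threonine kinase, and -3.88 for Tcp11l2. Sfrp1 and Pim2 lost their call without the Q20 line, and Pim2 also without either Q20 library.

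Genes of cell division rose together. Of 47 DNA replication genes, 37 rose and 0 fell (median slope 1.23), and of 60 mitosis and cytokinesis genes 52 rose and 0 fell (median slope 1.07). The shares of 12% rising and 10.1% falling are those of all tested genes, and both lists were drawn up with earlier results of these data known. The counts of each list below, from all 8 libraries, stand beside the same shares. A count near them is not read as a trait of its list. Counts with libraries or lines left out stand beside other totals. Of all 13206 tested genes, 742 rose and 471 fell without Q20 library 1. Without the Q20 line 1037 rose and 843 fell, and without the Q111 line 1154 and 1143. With single libraries left out, at least 29 replication and 44 mitosis genes rose, and without the Q20 line 29 and 46. Without the Q111 line the counts were 23 and 33. Cdk1, the kinase that drives entry into mitosis, stood at 127 and 129 CPM in Q20, 158 and 205 in Q50, 299 and 273 in Q92, and 408 and 406 in Q111 (slope 1.62, SE 0.14, adjusted p 0.000828). Iqgap3, a scaffold protein of dividing cells, stood at 38.1 and 36.5 CPM in Q20, 53.3 and 55.3 in Q50, 94.7 and 97.9 in Q92, and 114 and 109.8 in Q111 (slope 1.60, SE 0.11, adjusted p 0.000541). Neither gene's lines overlapped. Mki67, the proliferation marker chosen after its values were seen, stood at 501 and 554 CPM in Q20, 776 and 853 in Q50, 1289.5 and 1074 in Q92, and 1529.5 and 1689.7 in Q111 (slope 1.53, SE 0.15, adjusted p 0.000957), and Pcna, the sliding clamp of the replication fork chosen likewise, had a slope of 1.79.

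Of 33 Polycomb and DNA methylation genes 8 rose and 4 fell (median slope 0.12), with at least 5 and 1 when 1 library was left out. Dnmt1, the maintenance methyltransferase, stood at 287 and 293 CPM in Q20, 366 and 427 in Q50, 733 and 723 in Q92, and 759.8 and 743 in Q111 (slope 1.48, SE 0.14, adjusted p 0.000838). Uhrf1, which brings Dnmt1 to newly copied DNA, stood at 157 and 164 CPM in Q20, 202 and 238 in Q50, 317 and 333 in Q92, and 512 and 507 in Q111 (slope 1.57, SE 0.15, adjusted p 0.000838). Among the falls was Cbx7, a Polycomb reader, at 28 and 33.9 CPM in Q20, 27.2 and 22 in Q50, 1.75 and 2.75 in Q92, and 2.45 and 3.56 in Q111 (slope -3.62, SE 0.52, adjusted p 0.00322). Dnmt3b, a de novo methyltransferase of early development, stood at 210.1 and 241 CPM in Q20 and 3.61 to 7.64 CPM in the other 6 libraries, and its call was lost without either Q20 library. Of 27 p53 target genes 4 rose (14.8%) and 3 fell (11.1%), near the shares of all tested genes, and without the Q20 line 0 rose and 4 fell. Plk2, a kinase induced by p53, stood at 87.9 and 89.8 CPM in Q20, 179 and 248 in Q50, 926 and 895 in Q92, and 516 and 558 in Q111 (slope 3.01, SE 0.47, adjusted p 0.00432), highest in Q92, a call lost without the Q20 line. Ccng2, a cyclin of resting cells, fell (slope -1.42), and the calls of Ccng2, Zmat3 and Btg2 were lost without Q20 library 1.

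Promoters were searched, on both strands, for 2 motifs of cell cycle genes. The first, CCAAT, is the core of the site of the factor NF-Y. The second, TTTGAA, is a form of the cell cycle genes homology region (CHR) found in promoters of genes used in G2 and M phase. The windows had 300 bases, 250 before to 50 after RefSeq starts (GRCm38.p6). Of the 60 mitosis and cytokinesis genes 49 had an entry, and of these 67.3% held the NF-Y core and 69.4% the CHR. Of 39 DNA replication genes with an entry, 61.5% held the NF-Y core and 12.8% the CHR. Of all 27025 genes in the promoter table, 41.1% held the NF-Y core and 20.2% the CHR. GC made up 59.0% of the bases in the mitosis windows, 58.8% in the replication windows and 53.6% in the whole table, so the table is not matched in base composition and neither list is called richer or poorer in a motif. Under 80% of the rising, falling and tested genes had an entry, so the check is void for them and no share is given. The upstream 250 bases are shown for 3 rising mitosis genes with large slopes that hold both motifs. They are examples and not a full ranking of the list by slope. Matches to either motif, on either strand, are in capitals.
Cdk1, chr10:69352913-69353162, minus strand: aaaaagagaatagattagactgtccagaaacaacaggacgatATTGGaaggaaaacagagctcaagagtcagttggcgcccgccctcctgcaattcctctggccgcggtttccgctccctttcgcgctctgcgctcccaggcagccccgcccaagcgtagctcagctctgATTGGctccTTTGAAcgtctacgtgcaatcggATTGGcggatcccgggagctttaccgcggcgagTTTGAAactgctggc
Smc2, chr4:52438971-52439220, plus strand: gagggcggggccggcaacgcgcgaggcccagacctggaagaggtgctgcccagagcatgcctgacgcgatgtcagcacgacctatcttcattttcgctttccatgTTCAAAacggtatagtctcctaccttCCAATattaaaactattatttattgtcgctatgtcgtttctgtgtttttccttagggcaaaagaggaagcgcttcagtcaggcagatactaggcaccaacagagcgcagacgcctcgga
Mki67, chr7:135716380-135716629, minus strand: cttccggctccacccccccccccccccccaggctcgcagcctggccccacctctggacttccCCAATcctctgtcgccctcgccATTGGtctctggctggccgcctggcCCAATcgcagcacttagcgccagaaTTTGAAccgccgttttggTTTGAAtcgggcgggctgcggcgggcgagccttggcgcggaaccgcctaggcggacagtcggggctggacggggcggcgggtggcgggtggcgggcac
The slopes of these genes were 1.62 for Cdk1, 1.55 for Smc2, a condensin subunit, and 1.53 for Mki67. A match of letters is a description of the window and says nothing of which factor is bound.

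Genes of protein folding, degradation, splicing and sterol synthesis were also called mostly as rising. Of 53 molecular chaperone genes 18 rose and 3 fell (median slope 0.54). Hspd1, the mitochondrial HSP60, stood at 397 and 449.6 CPM in Q20, 804 and 912 in Q50, 963 and 935 in Q92, and 1107 and 1145 in Q111 (slope 1.25, SE 0.23, adjusted p 0.00881). Hsph1, a cytosolic HSP110, had a slope of 1.34, and the testis-enriched Hspa2 fell with a slope of -0.88. The calls of Hspd1 and Hsph1 were lost without the Q20 line, and that of Hspa2 without either Q20 or either Q111 library. Of 46 proteasome genes 14 rose and 0 fell (median slope 0.43), but 2 rose without Q20 library 1 and 1 without the Q111 line. Psmd3, a subunit of the regulatory lid, stood at 151 and 151 CPM in Q20, 180.2 and 168 in Q50, 199 and 204 in Q92, and 311 and 334 in Q111 (slope 0.95, SE 0.18, adjusted p 0.01) and lost its call without the Q20 line, and Psme3, an activator subunit, had a slope of 1.07 that was called no longer when any library but Q92 library 2 was left out. Chaperone counts were 9 rising and 0 falling at the fewest with 1 library left out, in both cases without Q20 library 1.

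Of 68 SR and hnRNP splicing factor genes 25 rose and 3 fell (median slope 0.48), and of 74 core spliceosome genes 19 rose and 1 fell (median slope 0.42). Without Q20 library 1 the rising counts were 13 and 8. Mbnl1, a regulator of alternative exons that binds CUG repeats, stood at 62.7 and 69.7 CPM in Q20, 95.5 and 109 in Q50, 198 and 164 in Q92, and 170.1 and 180.1 in Q111 (slope 1.48, SE 0.17, adjusted p 0.00148). Srsf6, an SR protein, stood at 125 and 91.9 CPM in Q20, 122 and 117 in Q50, 251 and 250.1 in Q92, and 228 and 248.8 in Q111 (slope 1.35, SE 0.21, adjusted p 0.00402). Both rose mainly between Q50 and Q92, where the libraries of the shorter and the longer alleles did not overlap. Lsm2, a ring protein of the U6 particle, had a slope of 1.71 and Lsm6 of 1.19, the latter called no longer without Q20 library 1. Snrpn, an imprinted gene of neural tissue, stood at 327 and 329.7 CPM in Q20 and 77.8 to 97.8 CPM in the other 6 libraries, so its fall was a step, and its call was lost without any single library of Q20, Q92 or Q111.

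Of 24 cholesterol synthesis genes 11 rose and 0 fell (median slope 0.87), with 6 rising without Q20 library 1 and 4 without the Q20 line. Msmo1, a sterol demethylating oxidase, stood at 162 and 182 CPM in Q20, 255 and 388 in Q50, 278 and 370.5 in Q92, and 557 and 577 in Q111 (slope 1.42, SE 0.29, adjusted p 0.0123), and lost its call without either Q20 library. Of 35 ER stress and ATF4 genes 7 rose and 4 fell (median slope 0.13), or 2 and 0 without Q20 library 1. Pdia6, a disulfide isomerase of the endoplasmic reticulum, stood at 166 and 172 CPM in Q20, 271 and 248 in Q50, 293 and 276 in Q92, and 405 and 418 in Q111 (slope 1.10, SE 0.17, adjusted p 0.00383) and lost its call without the Q20 line. Hspa5, the main chaperone of that compartment, stood at 429 and 461 CPM in Q20, 844 and 860.2 in Q50, 793 and 694 in Q92, and 1188 and 1194 in Q111 (slope 1.10). Its line means were not in order of length, and it departed from a straight line (adjusted p 0.00169, limma). Trib3 and Chac1, targets of ATF4, fell with slopes of -3.19 and -2.80. Trib3 stood at 36 and 23.2 CPM in Q20, 2.88 and 3.54 in Q50, 3.43 and 3.55 in Q92, and 1.04 and 1.15 in Q111, and its call and those of Chac1 and Hspa5 were lost without Q20 library 1.

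Of 89 oxidative phosphorylation genes 6 rose and 1 fell (median slope 0.02), or 1 and 0 without Q20 library 1. Of 81 cytosolic ribosomal protein genes 1 rose and 0 fell (median slope 0.17), or 0 without Q20 library 1 and 7 rising without the Q20 line. Cycs, cytochrome c, had a slope of 1.24, Ndufa5, a complex I subunit, of 0.91, and Rps27l, a ribosomal protein also induced by p53, of 0.81. All 3 calls were lost without Q20 library 1. Of 33 glycolysis and hypoxia response genes 3 rose and 7 fell (median slope 0.10), or 1 and 5 without Q20 library 1. Ldha, lactate dehydrogenase A, had a slope of 0.96 and Adm, adrenomedullin, of 1.30. Ldha lost its call without the Q20 line, and Adm without either Q20 library, Q50 library 1, Q92 library 2 or Q111 library 2. Aldoc, the brain aldolase and an astrocyte marker, stood at 1244 and 1091 CPM in Q20, 910.1 and 839 in Q50, 324 and 322 in Q92, and 102 and 97.4 in Q111 (slope -3.37, SE 0.39, adjusted p 0.0015), and Eno2, the neuronal enolase, had a slope of -2.01. Under quantile normalization the medians of the ribosomal, oxidative phosphorylation, glycolysis and ER stress lists changed sign.

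**Figure D2:**
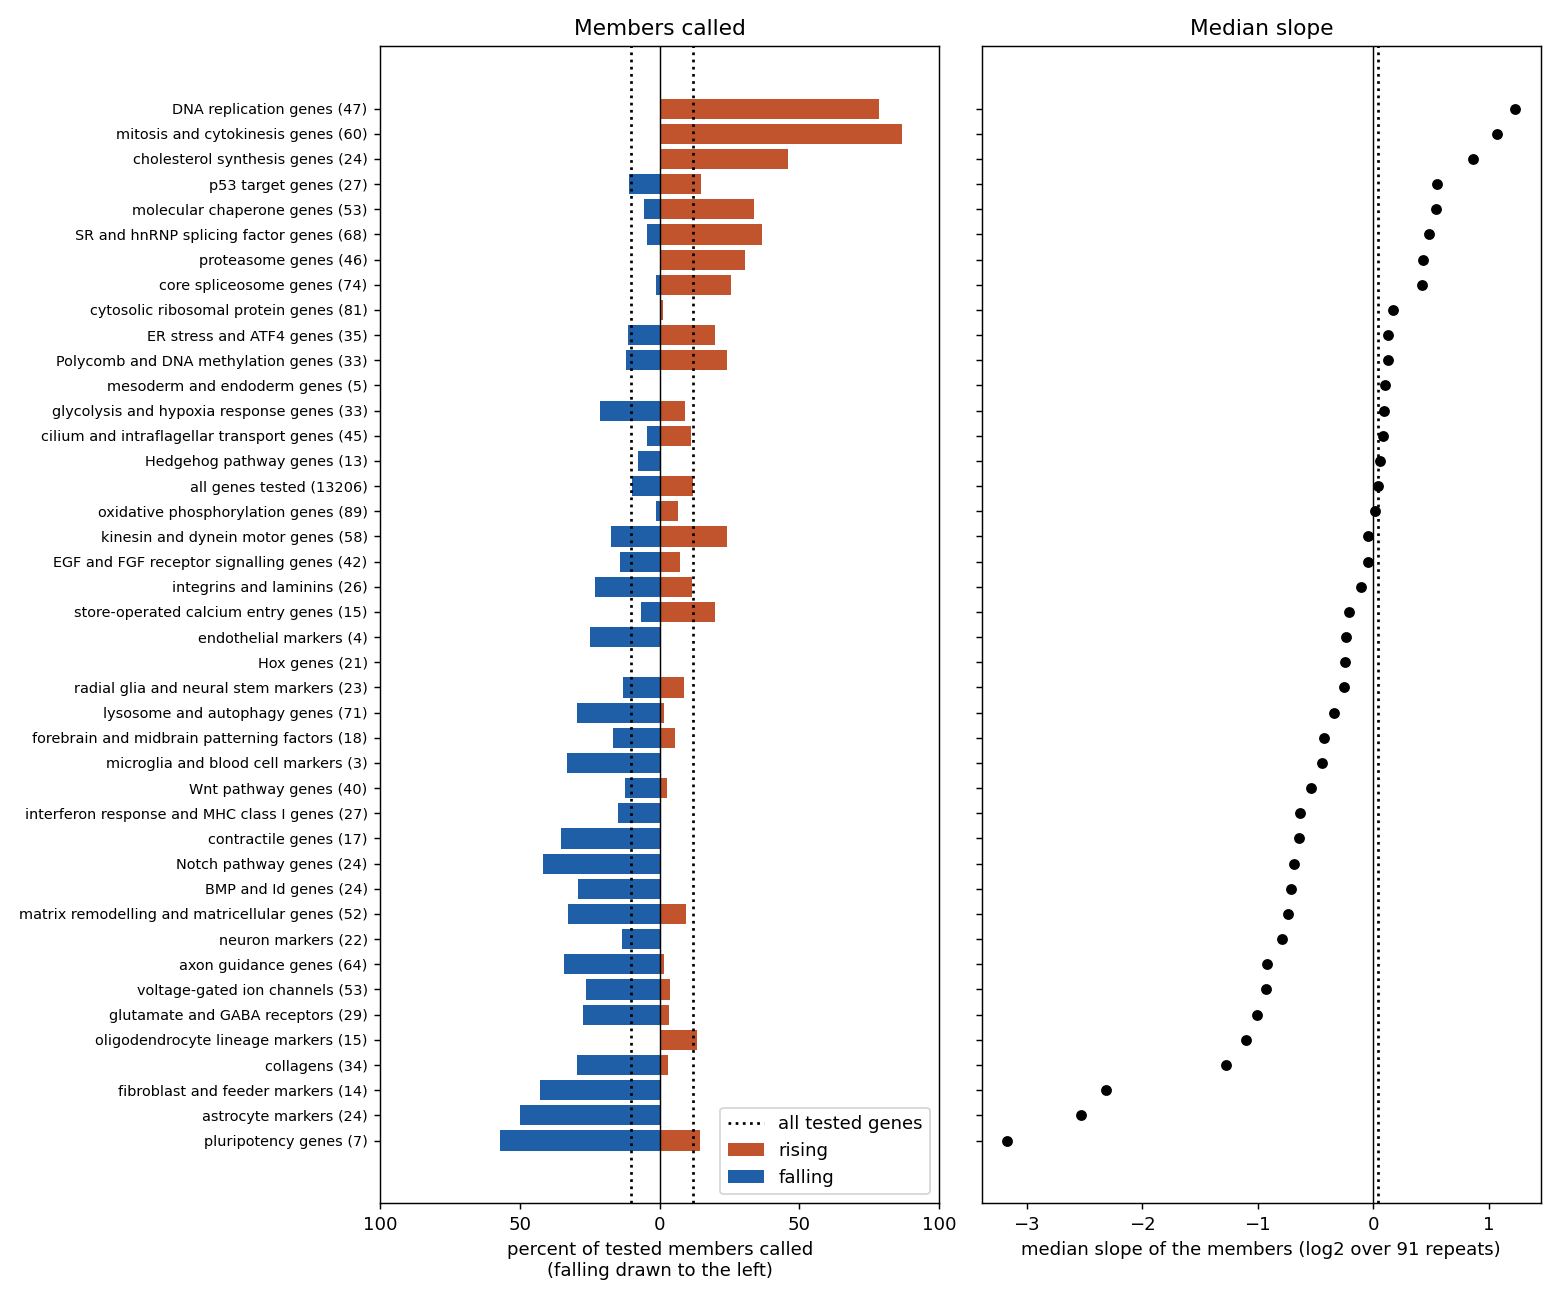
For 41 gene lists and all tested genes, sorted by median slope, the left panel gives the percent of tested members that rose (to the right) or fell (to the left), with dotted lines at 12% and 10.1% for all genes, and the right panel the median slope. DNA replication and mitosis lists lie at the top, with 37 of 47 and 52 of 60 rising, and astrocyte and pluripotency lists at the foot, with 12 of 24 and 4 of 7 falling.

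The called astrocyte markers fell. Of 24 tested, 12 fell and 0 rose, with a median slope of -2.53, and 8 fell without Q20 library 1. Their summed level was 9656 and 8884 CPM in Q20, 8719 and 7224 in Q50, 2462 and 2767 in Q92, and 2837 and 2879 in Q111, a sum that the most abundant genes dominate. Over the members, the median of log2(CPM + 1) relative to the mean of the 8 libraries was 1.44 and 1.36 in Q20, 0.82 and 0.74 in Q50, -1.15 and -1.13 in Q92, and -0.63 and -0.74 in Q111. It was thus lower in Q50 than in Q20 and lower again in Q92, and higher in Q111 than in Q92. Apoe, the main lipid carrier made by astrocytes, stood at 976 and 820.3 CPM in Q20, 1092 and 640.3 in Q50, 16.9 and 24.6 in Q92, and 46.7 and 43.8 in Q111 (slope -5.57, SE 0.98, adjusted p 0.00684). It was higher in Q111 than in Q92. Gfap, the astrocyte filament protein chosen after its values were seen, stood at 43.1 and 27.8 CPM in Q20, 72.9 and 35.3 in Q50, 0.182 and 0.0938 in Q92, and 2.82 and 2.44 in Q111 (slope -4.84, SE 1.18, adjusted p 0.0235). In bulk samples, fewer cells of a type and less RNA per cell cannot be told apart. Of 23 radial glia and neural stem markers 2 rose and 3 fell (median slope -0.25), or 0 and 2 without Q20 library 1. Without the Q20 line 1 rose and 6 fell, with a median of -1.22, and under quantile normalization 0 rose and 5 fell. Nes, the filament protein nestin, stood at 353 and 393 CPM in Q20, 606 and 914 in Q50, 1273 and 1224 in Q92, and 814 and 803 in Q111 (slope 1.28, SE 0.38, adjusted p 0.0432), highest in Q92, and lost its call without Q20 library 1. Ttyh1, a membrane protein of neural stem cells, stood at 368 and 340.3 CPM in Q20, 255 and 192 in Q50, 54.4 and 58 in Q92, and 38.4 and 36.1 in Q111 (slope -3.38, SE 0.20, adjusted p 0.000287).

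Neuron markers showed 3 falls and 0 rises among 22 tested (median slope -0.79), the same count at the fewest with 1 library left out, and 8 falls without the Q111 line. The 3 falls were 13.6% of those tested, against 10.1% of all tested genes. Dcx, a microtubule protein of young neurons, stood at 38.6 and 52.2 CPM in Q20, 9.03 and 4.66 in Q50, 1.06 and 0.969 in Q92, and 1.18 and 2.52 in Q111 (slope -4.19, SE 0.65, adjusted p 0.00434), a call lost without the Q20 line. The summed level of the list was 1515 to 2115 CPM over the 8 libraries. Of 15 oligodendrocyte lineage markers 2 rose and 0 fell. The risers were Cspg4 and Olig2, a transcription factor of the lineage, at 31.2 and 60.5 CPM in Q20, 56.4 and 117 in Q50, 150.2 and 193 in Q92, and 217 and 644 in Q111 (slope 2.91, SE 0.51, adjusted p 0.00677), whose Q20 and Q50 libraries overlapped and whose 2 Q111 libraries were far apart. The median slope of the list, -1.11, was opposite in sign to both, and it became 0.65 without the Q20 line, where 0 were called, while without the Q111 line 8 fell.

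The called genes of Notch and BMP signalling fell. Of 24 Notch pathway genes 10 fell and 0 rose (median slope -0.69), with at least 6 falling when 1 library was left out. Hes5, a repressor induced by Notch, stood at 64.1 and 37.3 CPM in Q20, 38.7 and 17.8 in Q50, 1.77 and 0.922 in Q92, and 4.47 and 10.1 in Q111 (slope -3.68, SE 0.92, adjusted p 0.0257) and lost its call without Q20 library 1. Dll3, a Notch ligand family member, stood at 87.4 and 79.7 CPM in Q20, 28.5 and 15.2 in Q50, 10.2 and 10.46 in Q92, and 9.31 and 6.78 in Q111 (slope -3.09, SE 0.41, adjusted p 0.00247), a call lost without the Q20 line. Of 24 BMP and Id genes 7 fell and 0 rose (median slope -0.71), or 2 without Q20 library 1. Bmp7, a ligand, was at 10.7 to 14.9 CPM in Q20 and Q50, 7.66 and 6.68 in Q92 and 0.257 and 0.0992 in Q111. The receptor Bmpr1b had a slope of -1.55. The calls of Bmp7 and Bmpr1b were lost without Q20 library 1.

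EGF and FGF act on these cells through the medium. Of 42 EGF and FGF receptor signalling genes 3 rose and 6 fell (median slope -0.05), with 1 and 4 called without Q20 library 1. The 3 rises were 7.14% and the 6 falls 14.3% of the list, against 12% and 10.1% of all tested genes. Egfr, the EGF receptor, stood at 313 and 329 CPM in Q20, 545 and 573 in Q50, 528 and 479.8 in Q92, and 954 and 963 in Q111 (slope 1.23, SE 0.28, adjusted p 0.0181). It rose with its ligand Areg, though the call of Egfr was lost without Q20 library 1, and the WT libraries stood at 1455 CPM, above all 8, and 705 CPM, above 6 of them. Fgfr3, a receptor of astrocyte precursors, stood at 256 and 197 CPM in Q20, 38.5 and 29.1 in Q50, 54.8 and 66.1 in Q92, and 14.4 and 17 in Q111 (slope -2.81, SE 0.76, adjusted p 0.0325), and Fgfr2 had a slope of -2.72. The call of Fgfr3 was lost without Q20 library 1, and that of Fgfr2 without the Q111 line.

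Of 40 Wnt pathway genes 1 rose and 5 fell (median slope -0.54), or 0 and 2 without Q20 library 1. The 1 rise was 2.5% and the 5 falls 12.5% of the list, against 12% and 10.1% of all tested genes. Wnt5a, a ligand, stood at 11 and 13.7 CPM in Q20, 19.1 and 8.34 in Q50, 39.3 and 39.9 in Q92, and 32.5 and 35.5 in Q111 (slope 1.75, SE 0.40, adjusted p 0.0176). Dkk3, a secreted protein of the Dickkopf family, stood at 20.0 and 19.4 CPM in Q20, 11.51 and 13.8 in Q50, 0.809 and 1.16 in Q92, and 2.07 and 1.6 in Q111 (slope -3.46, SE 0.49, adjusted p 0.00313) and kept its call with each line left out. Of 13 Hedgehog pathway genes 1 fell and 0 rose (median slope 0.06). It was Boc, a co-receptor, at 13.5 to 52.9 CPM (slope -1.27), and 0 were called without Q20 library 1. Of 18 forebrain and midbrain patterning factors 1 rose and 3 fell (median slope -0.43), or 0 and 1 without Q20 library 1. En2, of the midbrain and hindbrain, had a slope of 1.74, and its call was lost without Q20 library 1. Of 21 Hox genes, which mark positions along the trunk, 0 were called, and 3 rose without the Q111 line. The call of Wnt5a was likewise lost without Q20 library 1, and the medians of the Hedgehog and Hox lists changed sign under quantile normalization.

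The called genes of axon growth and excitability mostly fell. Of 64 axon guidance genes 22 fell and 1 rose (median slope -0.92), and 8 fell without Q20 library 2 and 6 without the Q20 line. Unc5c, a netrin receptor, stood at 42 and 39.7 CPM in Q20, 12.5 and 6.95 in Q50, 1.73 and 0.922 in Q92, and 4.41 and 5.29 in Q111 (slope -3.32, SE 0.76, adjusted p 0.0181). Slit3, a guidance ligand, was at 17.02 and 13.7 CPM in Q20 and 0.149 to 0.588 CPM elsewhere. Ntn1, netrin 1, stood at 95.7 and 151 CPM in Q20, 131 and 75 in Q50, 218 and 231 in Q92, and 262 and 256 in Q111 (slope 1.32, SE 0.34, adjusted p 0.0288), the rise of the list. Each of these 3 calls was lost without Q20 library 1. Of 53 voltage-gated ion channels 14 fell and 2 rose (median slope -0.93), or 4 and 0 without Q20 library 1. Kcna6, a potassium channel, stood at 19.5 and 19.5 CPM in Q20, 35.2 and 26.4 in Q50, 0.76 and 0 in Q92, and 3.01 and 2.62 in Q111 (slope -3.76, SE 1.02, adjusted p 0.0336), and Kcnh2, another, had a slope of -1.77. Both calls were lost without Q20 library 1.

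Of 29 glutamate and GABA receptors 8 fell and 1 rose (median slope -1.01), with 2 falling without Q20 library 1. Both subunits of the GABA-B receptor fell. Gabbr1 stood at 238 and 219 CPM in Q20, 52.1 and 55.6 in Q50, 53.2 and 55 in Q92, and 20.7 and 20.45 in Q111 (slope -2.83, SE 0.47, adjusted p 0.00555) and Gabbr2 at 41.6 and 38.8 CPM in Q20, 9.51 and 10.4 in Q50, 11.1 and 8.58 in Q92, and 1.58 and 1.42 in Q111 (slope -3.31, SE 0.58, adjusted p 0.00655). Q50 and Q92 overlapped in both genes, and the calls were lost without the Q20 or the Q111 line. Grin2a, an NMDA receptor subunit, rose, at 2 and 1.23 CPM in Q20, 0.696 and 1.11 in Q50, 13.9 and 13.9 in Q92, and 7.17 and 7.9 in Q111 (slope 2.55), a call lost without Q20 library 1. Of 15 store-operated calcium entry genes 3 rose and 1 fell (median slope -0.21). Beside Stim2, Itpr1, the inositol trisphosphate receptor that releases calcium from the endoplasmic reticulum, stood at 63.8 and 62.1 CPM in Q20, 57.5 and 77.7 in Q50, 141 and 139.8 in Q92, and 153 and 157 in Q111 (slope 1.45, SE 0.20, adjusted p 0.00263). The 3 rises of this list were called with each library and each line left out.

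The called collagen genes mostly fell. Of 34 collagens 10 fell and 1 rose (median slope -1.28), or 4 and 1 without Q20 library 1. Col3a1, a fibrillar collagen of mesenchymal cells, stood at 239.8 and 194 CPM in Q20, 608 and 630.0 in Q50, 5.27 and 6.1 in Q92, and 1.31 and 1.28 in Q111 (slope -7.70, SE 1.34, adjusted p 0.0066). Col1a2 stood at 33.1 and 25.4 CPM in Q20, 153 and 159 in Q50, 0.0495 and 0.0782 in Q92, and 0.433 and 0.496 in Q111 (slope -6.20, SE 1.60, adjusted p 0.0283). Q50 was the highest line for both. Both genes belong to the fibroblast and feeder list, whose sum without them was 566 and 508 CPM in Q50 and 201 to 282 CPM in the other 6 libraries. Of 14 fibroblast and feeder markers 6 fell and 0 rose (median slope -2.32), or 3 without Q20 library 1. The part of such cells in the fall of the collagens was not tested. Col12a1, the collagen that rose, stood at 10.7 and 10.9 CPM in Q20, 29.7 and 30.6 in Q50, 53.9 and 42.8 in Q92, and 45.9 and 51.5 in Q111 (slope 2.01, SE 0.31, adjusted p 0.00417). The call of Col1a2 was lost without Q20 library 1, that of Col3a1 without the Q111 line and that of Col12a1 without the Q20 line.

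Of 52 matrix remodelling and matricellular genes 5 rose and 17 fell (median slope -0.74), or 2 and 8 without Q20 library 1. Postn, periostin, had a slope of -4.09, and the proteases Adamts14 and Adamts19 of 3.08 and 2.52. The calls of these 3 were lost without Q20 library 1. Of 17 contractile genes 6 fell and 0 rose (median slope -0.64), or 3 without Q20 library 1. Myl9, a myosin light chain, stood at 12.6 and 11.3 CPM in Q20, 2.88 and 3.9 in Q50, 0.826 and 0.704 in Q92, and 0.677 and 1.11 in Q111 (slope -2.86, SE 0.36, adjusted p 0.00205). Tpm2, a tropomyosin, had a slope of -2.16 that was not called without Q20 library 1. Of 26 integrins and laminins 3 rose and 6 fell (median slope -0.11), or 1 and 3 without Q20 library 1. Lama1, a laminin chain, stood at 34.2 and 31.2 CPM in Q20, 15.5 and 21.2 in Q50, 12.1 and 9.79 in Q92, and 2.4 and 2.45 in Q111 (slope -2.91, SE 0.44, adjusted p 0.00379). Itga2, a collagen receptor subunit, had a slope of -2.21, Itga4 of 2.58 and Itga5 of 0.71, and all 3 calls were lost without Q20 library 1.

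Lysosome and autophagy genes fell in part: of 71, 21 fell and 1 rose (median slope -0.34), or 10 and 0 without Q20 library 1 and 7 and 0 without the Q20 line. Wipi1, which marks forming autophagosomes, stood at 54 and 52.8 CPM in Q20, 30.3 and 29 in Q50, 10.3 and 12.4 in Q92, and 11.6 and 12.2 in Q111 (slope -2.24, SE 0.24, adjusted p 0.0011). The Q92 and Q111 libraries lay together below Q50. Ctso, a cathepsin, had a slope of -1.84 and Atg5, part of the conjugation system of autophagy, of 0.58, the latter not called without Q20 library 1 and the former not without the Q111 line. Of 27 interferon response and MHC class I genes 4 fell and 0 rose (median slope -0.64), or 1 without Q20 library 1. Tapbp, tapasin, which loads peptides onto MHC class I, stood at 62.9 and 52.2 CPM in Q20, 39 and 31.9 in Q50, 19 and 19.1 in Q92, and 15.1 and 15.6 in Q111 (slope -1.85, SE 0.17, adjusted p 0.000828), and Tap2, of the peptide transporter, had a slope of -1.14 that was called no longer without each of the 8 libraries in turn.

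Motor genes were called in both directions. Of 58 kinesin and dynein motor genes 14 rose and 10 fell (median slope -0.05), or 7 and 6 at the fewest with 1 library left out. The mitotic kinesins Kif18a and Kif11 rose, with Kif11 at 152 and 162 CPM in Q20, 207 and 216 in Q50, 311 and 257 in Q92, and 375 and 381 in Q111 (slope 1.19, SE 0.13, adjusted p 0.00112) and a slope of 1.52 for Kif18a. Kif5a, the axonal kinesin of neurons, stood at 31.5 and 27.6 CPM in Q20, 7.14 and 6.68 in Q50, 3.8 and 3.58 in Q92, and 2.82 and 3.44 in Q111 (slope -2.74, SE 0.41, adjusted p 0.0038), and the light chain gene Klc4 had a slope of -1.34, a call lost without the Q20 line. Of 45 cilium and intraflagellar transport genes 5 rose and 2 fell (median slope 0.09), or 1 and 1 at the fewest with 1 library left out. The 5 rises were 11.1% and the 2 falls 4.44% of the list, against 12% and 10.1% of all tested genes. Cep290, a protein of the transition zone, had a slope of 1.08, Rfx4, a transcription factor of ciliated neural cells, of 0.85, and the trafficking genes Bbs2 and Wdr19 of -1.06 and -1.01. Rfx4 and Wdr19 were not called without Q20 library 1, nor Bbs2 without the Q111 line.

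The remaining lists mark cell types that should be absent. Of 7 pluripotency genes tested 4 fell and 1 rose (median slope -3.17), and without Q20 library 1, or without the Q20 line, 0 were called in either direction. Lin28a, an RNA-binding protein of early embryos, stood at 70.8 and 69.1 CPM in Q20, 0.058 and 0.0353 in Q50, 0.0826 and 0.0469 in Q92, and 0.162 and 0.128 in Q111, a step and not a gradient, as for Pou5f1 above. Without the Q20 line the slopes of Pou5f1 and Lin28a changed sign, to 0.25 and 0.17. Klf4, the riser, stood at 3.19 and 3.83 CPM in Q20, 2.19 and 2.62 in Q50, 13.2 and 18.5 in Q92, and 10.9 and 10.2 in Q111 (slope 1.99, SE 0.52, adjusted p 0.0302), and its call was lost without Q20 library 1. Of 3 microglia and blood cell markers 1 fell (median slope -0.44), of 4 endothelial markers 1 fell (median slope -0.24), neither count lower with any 1 library left out, and of 5 mesoderm and endoderm genes 0 were called (median slope 0.10).

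The WT and KO libraries, which the trend did not use, spread over much of the same range. In both genotypes library 2 was on the side of the long alleles and library 1 on the side of the short ones. Of the 1579 rising genes 1447 (91.6%) were higher in WT 2 than in WT 1 and 1375 (87.1%) higher in KO 2 than in KO 1, against 52.4% and 49.3% of all tested genes. Of the 1330 falling genes 232 (17.4%) and 250 (18.8%) were. Each of the 60 mitosis genes was higher in library 2 of both genotypes, with a median log2 difference of 1.34 in WT and 1.31 in KO, beside the median slope of 1.07 over the whole repeat gradient. For astrocyte markers the median difference was -0.97 in WT and -0.999 in KO, and for cholesterol synthesis genes 0.88 and 1.10. Tk1 stood at 17 and 134 CPM in WT and 21.7 and 129 in KO, Aqp4 at 102 and 5.76 CPM in WT and 29.5 and 4.4 in KO, and Stim2 at 97.6 and 192 CPM in WT and 147 and 209.9 in KO.

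Across the 13206 tested genes, the difference between WT 2 and WT 1 and the knock-in slope had a Pearson correlation of 0.47 and a Spearman correlation of 0.54, and for KO 2 and KO 1 they were 0.38 and 0.47. Genes are not independent replicates, and this is a description of these libraries. Other genes had other patterns: Cspg4 was at 32.9 and 43.2 CPM in WT and 92.1 and 61.5 in KO, Sulf1 and Colec12 were low in all 4, and pluripotency genes summed to 9.84 to 21.1 CPM there. Within a genotype, log2 differences between library 2 and library 1 had an SD of 0.869 in WT and 0.689 in KO, against 0.486 to 0.535 in the knock-in lines. The 2 libraries of each knock-in line were thus closer to each other than those of WT or KO. What made the WT and KO pairs differ was not tested.

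**Figure D3:**
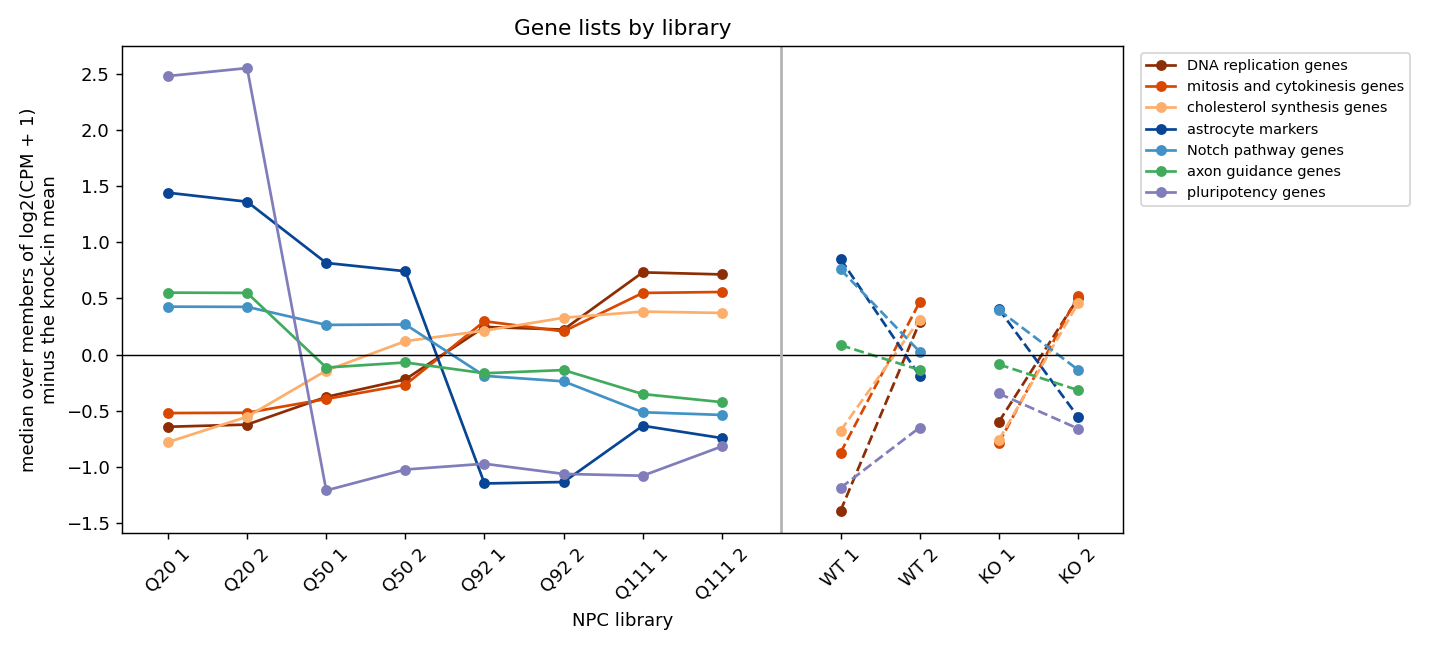
Median over the members of 7 lists of log2(CPM + 1) minus the mean of the 8 knock-in libraries, in each NPC library, with the 2 WT and the 2 KO libraries at the right joined by dashed lines. Division and cholesterol genes climb and Notch and axon guidance genes descend with length, axon guidance genes most between Q20 and Q50. Astrocyte markers descend to Q92 and are higher in Q111. The pluripotency list is high in Q20 alone, and both WT and KO pairs span a comparable range in the division lists.

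**Figure D4:**
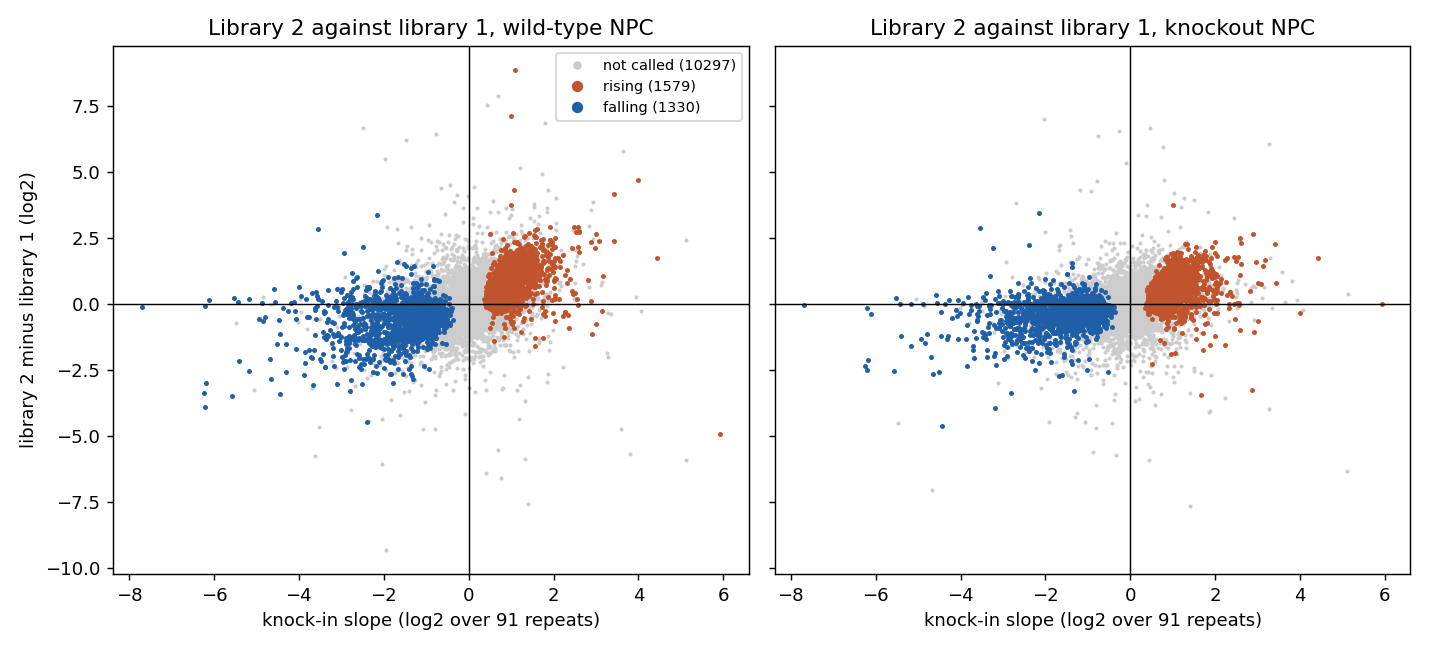
Each point is a gene of the 13206 tested, with the knock-in slope on the x axis and the log2 difference between library 2 and library 1 of WT (left) or KO (right) on the y axis. Of the 1579 rising genes (orange) 91.6% lie above 0 in WT and 87.1% in KO, and of the 1330 falling genes (blue) 17.4% and 18.8%.

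The lines also differed by whole chromosomes. The median gene of chromosome 1 was 0.34 and 0.36 above its knock-in mean on the log2 scale in the Q50 libraries. On chromosome 11 the medians were 0.30 and 0.27 in Q111 and -0.24 and -0.20 in Q50, and on chromosome 8 they were -0.24 and -0.23 in Q92 and 0.18 and 0.13 in Q111. The WT libraries, on the same scale, were at 0.22 and 0.24 on chromosome 1, -0.37 and -0.25 on chromosome 8, and -0.25 and -0.13 on chromosome 11. The KO libraries were at 0.35 and 0.41, 0.09 and 0.13, and -0.17 and -0.16. Q50 on chromosome 1 and Q92 on chromosome 8 were thus nearer to WT than the other knock-in lines were. Medians of the other autosomes and the X lay between -0.11 and 0.11 in the 8 libraries. Of 776 tested genes on chromosome 1, 5.41% rose and 11.9% fell. With each library centred on its median per chromosome, an alternative chosen after seeing the data, 3222 genes were called, of which 2706 were among the 2909. The slope of Tk1, on chromosome 11, was then 2.42 and that of Psme3, also there, 0.92. En2, Atg5 and Tap2 lost their call.

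**Figure D5:**
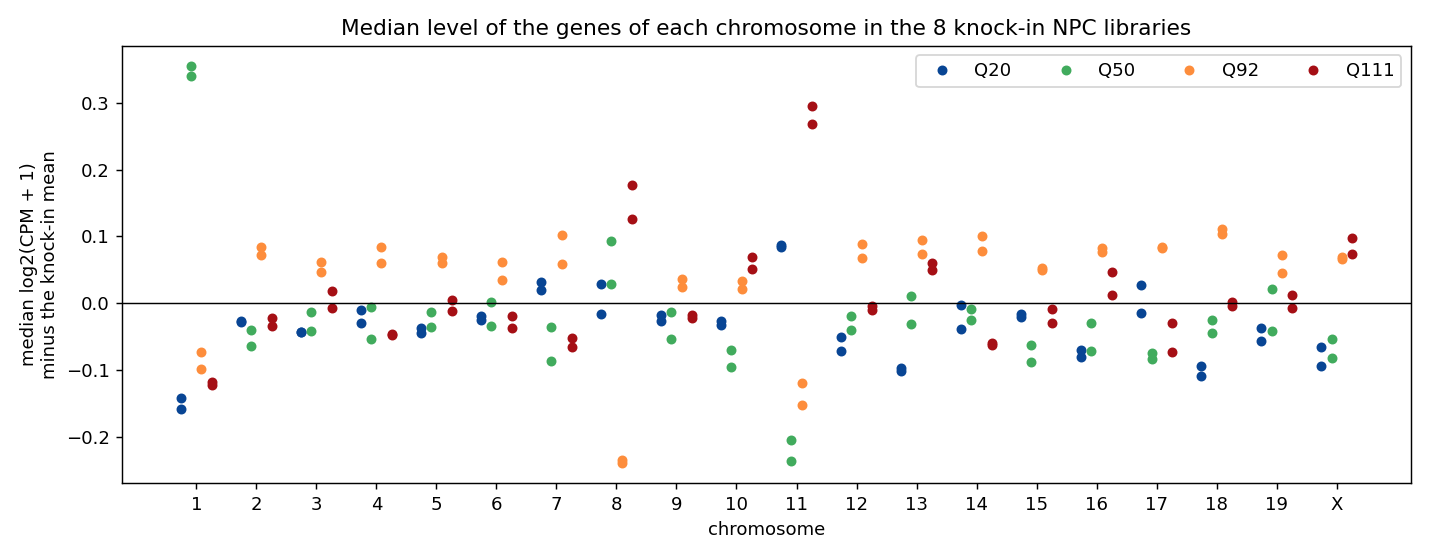
Median over the tested genes of each chromosome of log2(CPM + 1) minus the mean of the 8 knock-in libraries, with 2 points for the 2 libraries of each line. Among the knock-in lines chromosome 1 stands out in Q50, chromosome 8 in Q92 and chromosome 11 in Q111, and both libraries of a line lie together. The WT and KO libraries are not drawn, and the Y chromosome is left out.

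The mESC lines of the same alleles were tested for the same slope. Genes that rose in NPC had a median mESC slope of 0.05, and genes that fell one of -0.10. The difference of slopes between the cell types passed the test for 599 of 12321 genes tested in both (4.86%), with the NPC slope above the mESC slope for 333 and below it for 266. Of the 333, 325 were among the rising genes, 29 were DNA replication genes and 26 were mitosis genes. The median mESC slope was 0.00 to 2 decimals for the DNA replication list and 0.11 for the mitosis list. The same NPC libraries gave the rising calls and the NPC slopes compared here, and these median mESC slopes were small. The overlap with the rising genes and with these lists is therefore largely built in and is not read as separate evidence. The count of 599 fell to 276 without NPC Q20 library 1 and 324 without NPC Q20 library 2. It was 360 without mESC Q20 library 2, 344 without mESC Q111 library 1, and 399 and 393 without libraries 1 and 2 of NPC Q111. With 1 mean per line it was 0, against 1358 genes at an unadjusted p under 0.05. Of the 24 genes named for their slope, 21 were tested in both cell types, their mESC slopes ran from -0.88 to 0.44, and 17 passed the test of the difference.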

How the data were processed

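RNA sequencing of NPC and mESC libraries was analysed from a table per cell type. The authors' values are a normalised signal named CPM: STAR, CASAVA 1.8 and the build GRCm38.p6 are given in the submitters' processing notes, and the counting tool, its use of strand and the annotation are not given in the sources used here, so overlapping and antisense genes cannot be told apart. Column totals of the deposited signal were 900342 and 900763 in Q20, 938379 and 991873 in Q50, 1050872 and 1056443 in Q92, and 1042215 and 1048402 in Q111. The totals were thus not equal along the gradient and were lowest in Q20. Counts of calls under other scalings are given below. In each knock-in column 100% of the values were whole multiples of 1 step (tolerance 0.1), which gave the recovered reads. The design had taken the values as plain CPM, and the test for normalised values was kept.

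The 8 knock-in NPC libraries were fitted with limma 3.58.1 (R 4.3.3; moderated, variance trend, two-sided) as log2(CPM + 1) on repeat length, for 13206 of 16024 genes with at least 1 CPM in at least 2 of the 12 NPC libraries. The rest, 2818 genes, were not tested. P-values were adjusted by Benjamini-Hochberg over all genes tested. The fit was tested on simulated data. Libraries were drawn independently there, with no line differences beyond the slope. That test therefore does not judge the calls against a spread between lines. Alternatives included edgeR 4.0.16 on recovered reads, other scalings, filters, pseudocounts, lengths and left-out libraries and lines. Named genes are Htt, then the 12 steepest rising and 12 steepest falling protein coding genes that were called and had at least 2 exons, a line mean of at least 10 CPM and 8 libraries in order of length, and up to 2 rising and 2 falling called members of each list at 10 CPM. GENCODE M21 gave positions for 13201 of the tested genes. The comparison, the 41 lists and the rule were chosen with earlier results of these data known, and no list was tested as a set. Some genes that the rule picks are not reported here.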

Additional observations from a re-analysis of the deposited data

Results flagged for a closer look

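Of the 24 genes named for the size of their NPC slope, 17 had a slope that differed between NPC and mESC, by limma's interaction test in a joint fit of the 16 knock-in libraries. The values are the NPC slope minus the mESC slope, as log2 over 91 repeats. Among rising genes the difference was 3.00 for Tsnax, 2.73 for Fam72a, 2.73 for Tk1, 2.86 for Cspg4, 2.49 for Rrm2, 2.37 for Morc4, 2.29 for Chn2 and 1.99 for Stim2. The smallest adjusted p among these was 0.00052, for Tk1, and the largest 0.0356, for Fam72a. Among falling genes it was -5.94 for Sulf1, -4.69 for Colec12, -3.84 for St6gal2, -4.66 for Slc7a3, -4.34 for Gm973, -3.77 for Abat, -4.17 for Tcp11l2, -3.88 for Mdk and -3.53 for Timp3. Sulf1, with an adjusted p of 3.26e-05, had the largest difference of the 17. These genes were picked by their NPC slope, so a large difference from a second cell type is partly built into the choice. With 1 mean per line and cell type no gene passed (limma, 1358 genes at an unadjusted p under 0.05).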

How the results depend on the processing

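The count of genes that followed repeat length was 2909. It was 0 with 1 mean per line, 7172 when judged against the spread between the libraries of a line, 4411 when the WT and KO libraries shared in the spread, and 1880 without the Q20 line. It ran from 1213 to 2891 when single libraries were left out. The other alternatives gave 2015 to 3742 calls, within 1.5 times of 2909. Rising and falling calls were 1453 and 1414 with median-of-ratios scaling, 1245 and 1098 with quantile normalization, and 1537 and 808 at a mean of at least 5 CPM. With quantile normalization 14 axon guidance genes and 7 voltage-gated channels fell, 8 core spliceosome, 3 proteasome and 9 chaperone genes rose, and of the motors 8 rose and 17 fell. The endothelial median was then 0.26. The count for the difference between NPC and mESC slopes was 599, and was 0 with 1 mean per line and 276 to 666 with single libraries left out. The replicate numbers were not found to pair the knock-in libraries: the differences between libraries 1 and 2 correlated between knock-in lines at -0.05 to 0.02. WT and KO were not in this check, and their library differences are given above. With a replicate block the trend called 2015 genes (1149 rising, 866 falling) and the difference of slopes 1005. Over 27 alternatives, 113 named genes kept direction and side of the threshold in 2475 combinations, lost the call in 564 and changed sign in 4: Htt without Q111 replicate 1 (0.0369) and without the Q111 line (0.203), and Pou5f1 (0.250) and Lin28a (0.170) without the Q20 line. The slope of Htt ran from -0.154 to 0.0369 with single libraries left out. The cause was not tested. Genes under about 1 CPM rest on few reads, and their slopes on log2(CPM + 1) are understated.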

Other observations

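Beyond the gradient, 24 genes were at 10 CPM or more in Q20 and under 1 CPM in each of the other 3 line means, against 2 such genes in Q50, 2 in Q92 and 3 in Q111. Of the 24, 18 were called as falling. They were chosen after their values were seen, and include Pou5f1, Lin28a and Sall4 of pluripotent cells, Epcam, an epithelial adhesion protein, Crabp2, a carrier of retinoic acid, Trh, the thyrotropin releasing hormone, and Calcr, the calcitonin receptor. Sall4 stood at 47.1 and 54.6 CPM in Q20, 0 and 0 in Q50, 0.0495 and 0 in Q92, and 0.0406 and 0.0709 in Q111.

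Falling genes were longer in the genome. Of the 1330 falling genes, 282 (21.2%) spanned more than 100 kb in GENCODE M21, against 163 of 1578 rising genes with a position (10.3%) and 15.7% of 13201 tested genes. The median spans were 30.0 kb, 26.1 kb and 26.2 kb, so the gap lay in the upper part of the range: the upper quartiles were 79.0, 52.8 and 63.3 kb.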
